A study of Homo sapiens with 18 samples.

Results

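The transcripts described here are the long RNAs of 10 miRNA host genes, MIR17HG, MIR22HG, MIR31HG, MIR100HG, MIR99AHG, MIR210HG, MIR503HG, MIR193BHG, MIRLET7BHG and DLEU2. They were taken by gene symbol from a table of 58302 genes, and each symbol matched 1 row. Of the 10, 9 were high enough to enter every comparison, while MIR503HG was listed at 0 in all 18 libraries and entered none.

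Messenger RNA was sequenced from TPC1, a cell line of a human papillary thyroid carcinoma, and from D11, a single Dicer1 (+/-) clone that the study made from TPC1 by CRISPR-Cas9. Cells of both lines received no siRNA (non-transfected, NT), a negative control siRNA (NC) or a Dicer1 siRNA (siDicer), either siRNA at 5 nM, and were harvested for RNA on day 4. The 6 groups had 3 libraries each, and NT and NC of a line, joined by the study, served as its control of 6 libraries. The study's methods describe its experiments in general as repeated independently, but the labels do not say which libraries came from separate cultures, and p-values measure the spread between these libraries. The heterozygous state was represented by 1 clone, so the effects of clone and genotype cannot be told apart.

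Most miRNAs are made from long transcripts of the kind followed here. In the nucleus the Microprocessor, formed by Drosha and DGCR8, cuts a hairpin out of the host RNA, and in the cytoplasm Dicer trims that hairpin to the mature miRNA. The host transcript is therefore upstream of Dicer. Poly-A selected libraries show the host RNA that escapes cropping or is left after splicing, and they do not measure the mature miRNAs, whose levels are not analysed here.

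The hosts fall into families through the miRNAs they carry, so the mature sequences are shown for the arm usually taken as the main product. RefSeq (GRCh38.p14) gave 21 mature sequences with 14 different seeds, the seed being bases 2 to 8, written in capitals. All sequences run 5′ to 3′. The first set is shown because it links 3 hosts through shared seeds: let-7 members come from MIR100HG (let-7a), MIR99AHG (let-7c) and MIRLET7BHG (let-7a and let-7b), while MIR99AHG and MIR100HG each carry a miR-99 or miR-100 hairpin and a miR-125b hairpin.
let-7a-5p: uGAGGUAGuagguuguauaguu
let-7b-5p: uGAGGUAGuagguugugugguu
let-7c-5p: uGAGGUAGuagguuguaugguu
miR-99a-5p: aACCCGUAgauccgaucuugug
miR-100-5p: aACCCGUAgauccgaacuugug
miR-125b-5p: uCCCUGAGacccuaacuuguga

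The second set is shown because DLEU2 (miR-15a and miR-16) and MIR503HG (miR-424) share a seed, with miR-503 close to it, although DLEU2 was well measured and MIR503HG was not.
miR-15a-5p: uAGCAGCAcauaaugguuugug
miR-16-5p: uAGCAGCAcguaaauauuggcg
miR-424-5p: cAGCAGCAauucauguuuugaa
miR-503-5p: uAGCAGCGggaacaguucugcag

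The third set is the MIR17HG polycistron, in which miR-17 and miR-20a share a seed and miR-19a and miR-19b share another.
miR-17-5p: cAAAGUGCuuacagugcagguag
miR-20a-5p: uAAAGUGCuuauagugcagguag
miR-18a-5p: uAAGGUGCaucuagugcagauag
miR-19a-3p: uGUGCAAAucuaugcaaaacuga
miR-19b-3p: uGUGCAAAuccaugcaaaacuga
miR-92a-3p: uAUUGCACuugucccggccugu

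The remaining 4 hosts carry seeds found in no other member, and MIR193BHG has both miR-193b and miR-365a.
miR-22-3p: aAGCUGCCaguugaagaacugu
miR-31-5p: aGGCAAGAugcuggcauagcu
miR-193b-3p: aACUGGCCcucaaagucccgcu
miR-365a-3p: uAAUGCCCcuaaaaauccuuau
miR-210-3p: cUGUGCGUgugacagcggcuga

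Annotation of the hairpins was taken from GENCODE release 44 on GRCh38. The study counted on an Ensembl annotation of another release, with which the overlaps below were not compared. Of 30 miRNA genes on the same strand inside a host or within 10 kb of it, 14 lay inside the host and overlapped an exon. Another 11 lay in introns, and 5 were not fully inside the host. The MIR99AHG gene spans chr21:15928296-16646364 on the plus strand, with MIR99A in an intron and MIRLET7C (chr21:16539828-16539911) and MIR125B2 (chr21:16590237-16590325) overlapping annotated exons. The MIR100HG gene spans chr11:122028325-122556721 on the minus strand, and its hairpins MIR125B1, MIRLET7A2 and MIR100 were all intronic. In DLEU2 (chr13:49956670-50125720, minus strand), MIR15A overlapped an exon of some annotated transcript and MIR16-1 was intronic. The span of MIRLET7BHG is chr22:46053869-46113928 (plus strand). All 6 hairpins of MIR17HG (chr13:91347686-91397592, plus strand) overlapped annotated exons. In 6 of the 10 hosts some exon overlaps an exon on the opposite strand (7 genes for DLEU2, 4 for MIR31HG and 1 each for MIR17HG, MIR100HG, MIR99AHG and MIRLET7BHG). The strand setting of the authors' counting is not given in the sources used here, so reads of such pairs cannot be told apart and these values are uncertain.

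The hairpin rows themselves were almost empty. All 30 miRNA genes had a row in the table, 16 of these stood at 0 in all 18 libraries, and 26 never exceeded a value of 3. MIR22, which overlaps an exon of MIR22HG at chr17:1713903-1713987, was the exception, with a median of 36.5 and a range of 22 to 52. MIR210 and MIR4763 reached 9 and MIRLET7B reached 4. How the counting treated reads that fit both a hairpin and a host exon is not given. A low row there therefore does not show that the RNA was absent. Values here and below are reads scaled to 20 M per library (M is the SI prefix mega), and in these units 1 read was worth 0.861 to 1.77.

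The libraries held 11.3 to 23.2 M reads. For 12 of the 18 samples the title and the description disagree on the group, and the description was followed. Under it the targeted gene DICER1 was at 246 to 395 in the siDicer libraries of TPC1, below all its control libraries (1397 to 2492), and at 277 to 451 in those of D11, below all its control libraries (655 to 1536). Thyroid markers were mixed: PAX8 (7361 to 14886) and FOXE1 (61 to 214) were present, TG was low (32 to 124), and TSHR, SLC5A5 and NKX2-1 never exceeded 2. Of the 4 epithelial markers, KRT8 and KRT18 were high while EPCAM and KRT19 stayed at 8 or less. Summed over 6 markers of blood, endothelial and liver cells, values reached 2 to 17 per library, with CD3E at 0 in all 18.

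**Figure D1:**
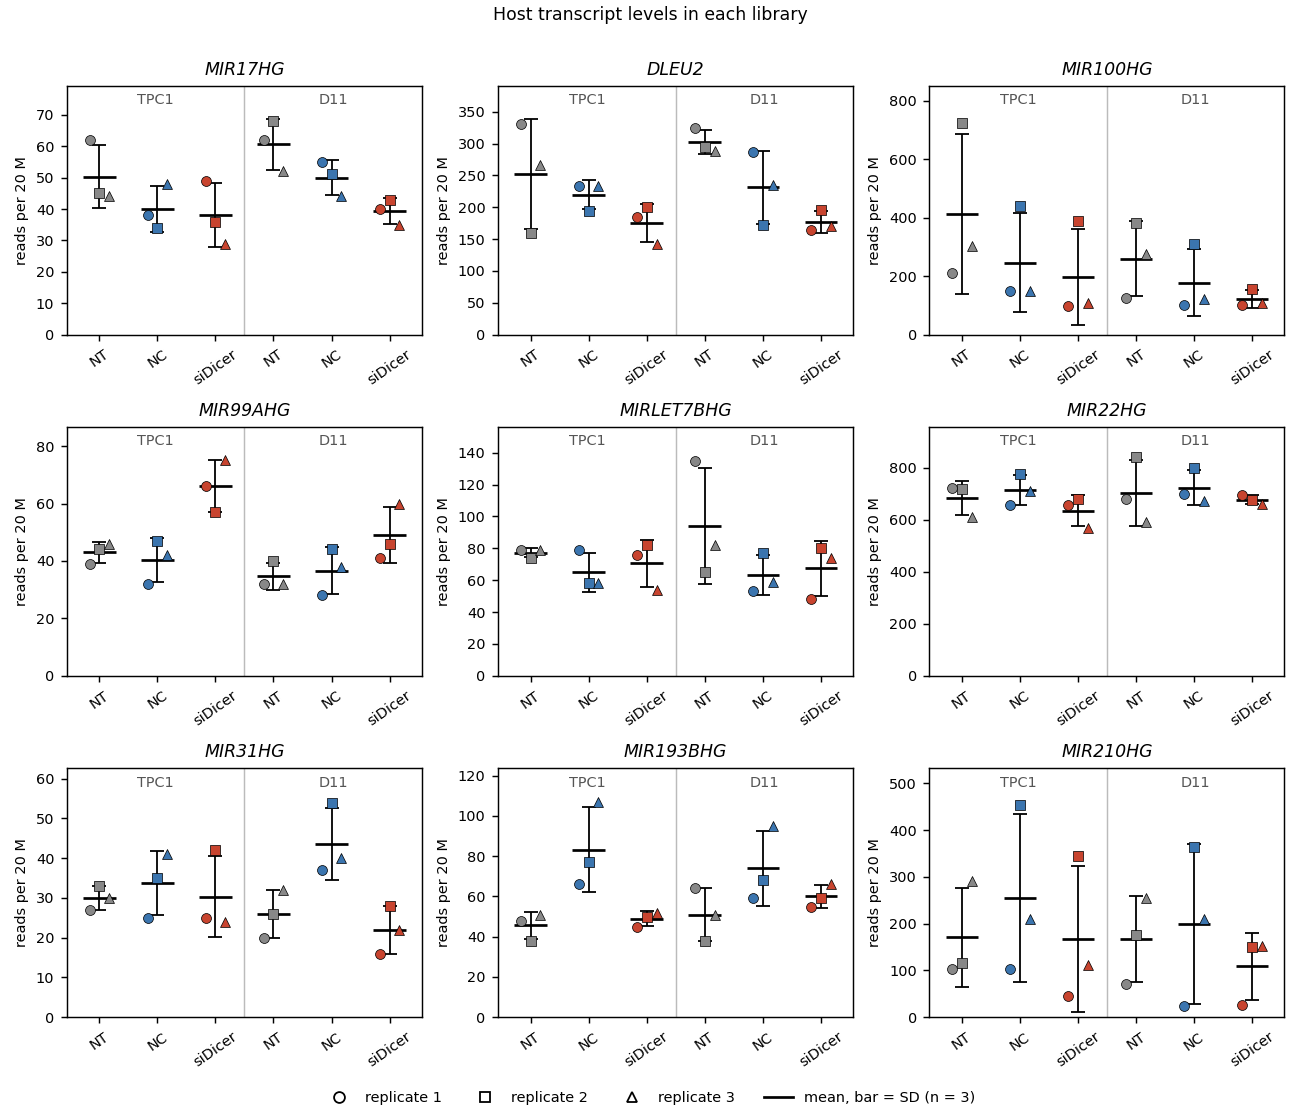
Values of the 9 measured host transcripts (vertical axis, reads per 20 M) in NT, NC and siDicer libraries of TPC1 and D11. Symbols are single libraries by replicate number, horizontal lines are means and bars are SD (n = 3). MIR99AHG has its highest mean in siDicer of both lines, MIR17HG and DLEU2 have their lowest means there, and MIR100HG and MIR210HG spread widely within each group.

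The first question was whether the host transcripts differ when Dicer is knocked down. In TPC1, 1 of the 9 tested members passed the test and it rose: MIR99AHG. Of all 18475 genes tested in TPC1, 7.38% were called, 3.22% higher and 4.16% lower. In D11, 0 of 9 members were called by limma, beside 12% of 18413 genes, 5.26% higher and 6.75% lower. At an unadjusted p under 0.05, 1 of 9 members passed in TPC1 (30.5% of all genes) and 2 of 9 in D11 (35.5% of all genes). With the count-based voom weights on recovered reads, 1 of 9 passed in D11, DLEU2 and lower, beside 2258 of all genes. A gene was called where its fold change reached 1.5 and its adjusted p was under 0.05. In bulk RNA, fewer cells that carry a transcript and less of it per cell cannot be told apart.

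The estimated difference was negative for 8 of the 9 members in each line, MIR99AHG being the exception in both. Over all genes, 54.7% had a negative estimate in TPC1 and 54.3% in D11. The median log2 difference of the 9 members was -0.25 in TPC1 and -0.47 in D11, beside -0.04 for all genes in either line. Estimates near 0 gave no firm sign: MIRLET7BHG in TPC1 and MIR193BHG in D11 turned positive, at 0.01 to 0.03, under both TMM and RLE scaling.

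**Figure D2:**
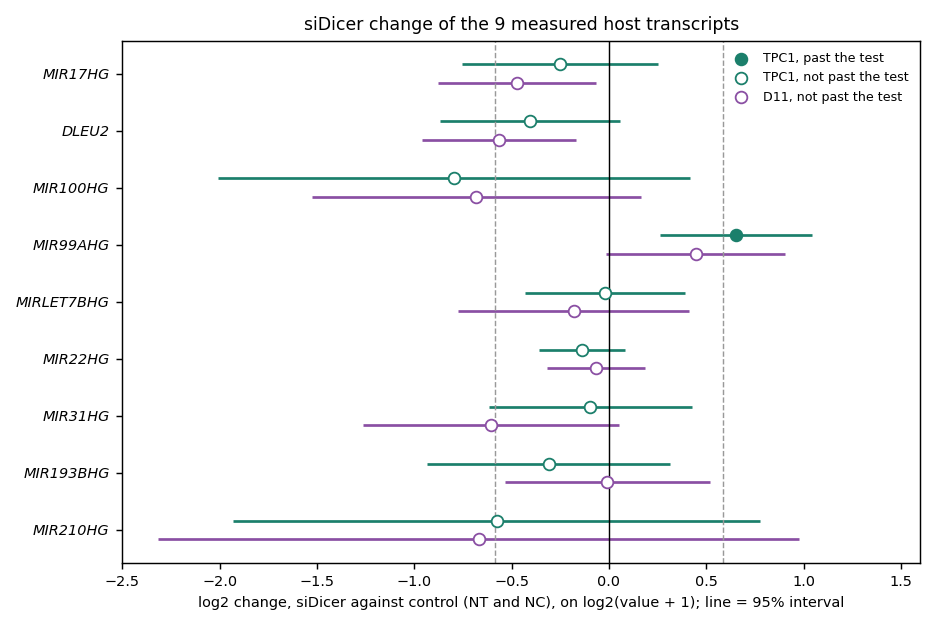
Log2 difference between siDicer and control (horizontal axis, on log2(value + 1)) for 9 host transcripts in TPC1 and D11, with 95% intervals as lines. Filled points passed the test and dashed lines mark a fold change of 1.5. MIR99AHG in TPC1 is the filled point, at 0.65, and the intervals of MIR100HG and MIR210HG are the widest.

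MIR99AHG carries the chromosome 21 cluster of miR-99a, let-7c and miR-125b. In TPC1 its NT libraries held 39, 44 and 46, the NC libraries 32, 47 and 42, and the siDicer libraries 66, 57 and 75, in the order of replicates 1 to 3 as for all values below. All 3 siDicer libraries lay above all 6 control libraries, as was so for 7.62% of tested genes, while 0 of 9 members lay wholly below control (9.91% of genes). The siDicer mean was 66 ± 9 (SD, n = 3) and the control mean 41.7 ± 5.54 (SD, n = 6), and the log2 difference was 0.65 (SE 0.18, 95% interval 0.26 to 1.04, limma adjusted p = 0.0335).

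In D11 the MIR99AHG values were 32, 40 and 32 for NT, 28, 44 and 38 for NC, and 41, 46 and 60 for siDicer. The siDicer replicates 2 and 3 were above all control libraries and replicate 1 was not, so 0 of 9 members lay wholly above control (11% of genes). The log2 difference of 0.45 (SE 0.21, 95% interval -0.01 to 0.90) did not pass the test (adjusted p = 0.152). The difference between the lines was -0.21 (95% interval -0.76 to 0.34) and was not resolved.

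The call of MIR99AHG in TPC1 was close to its limits. It was lost without NT replicate 1 (adjusted p = 0.0659), NC replicate 3 (0.0581), siDicer replicate 1 (0.136) or siDicer replicate 3 (0.182), and without NC replicate 1 the log2 difference of 0.58 fell short of the fold change minimum. Against NT alone the adjusted p was 0.107 and against NC alone 0.0746, with log2 differences of 0.60 and 0.71. Genes with the profile most like it over the 18 libraries, by root mean square difference of centred log2 values among genes with a mean of at least 100, were LZTS3 (0.16), CPNE2 (0.18) and MYO1E (0.18), compared with 0.36 for the spread of MIR99AHG itself.

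MIR100HG is the chromosome 11 counterpart, with miR-100, let-7a and miR-125b. TPC1 values were 211, 725 and 302 (NT), 149, 440 and 150 (NC) and 97, 388 and 107 (siDicer). Replicate 2 was the highest library of each group, so the groups overlapped widely. The log2 difference between siDicer and control was -0.80 in TPC1, with an SE of 0.55 and a 95% interval of -2.01 to 0.41 (adjusted p = 0.363). It was -1.44 without siDicer replicate 2, -0.44 without siDicer replicate 1, -0.51 without siDicer replicate 3 and -0.52 without NT replicate 2, none of them called. With the replicate number in the fit as a block, the SE was 0.24 and the difference was called (limma adjusted p = 0.0412). The TPC1 libraries were, however, not taken as paired.

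D11 values of MIR100HG were 124, 380 and 274 (NT), 102, 310 and 121 (NC) and 101, 155 and 108 (siDicer). Replicate 2 was again the highest in each group. The log2 difference was -0.68 (SE 0.39, adjusted p = 0.233). With the replicate number in the fit as a block, the SE was 0.25 and the limma adjusted p 0.0672, not called. In each set of libraries with the same number, in both lines, the order was NT, then NC, then siDicer from high to low. In replicate 1 of D11 the last step, from 102 to 101, was smaller than the worth of 1 read (1.32 and 1.27) and thus not resolved. This order was noticed after the values were seen, and the share of all genes that show it was not counted. The estimates of MIR100HG and MIR99AHG had opposite signs in both lines, and the difference between the 2 hosts was not tested.

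**Figure D3:**
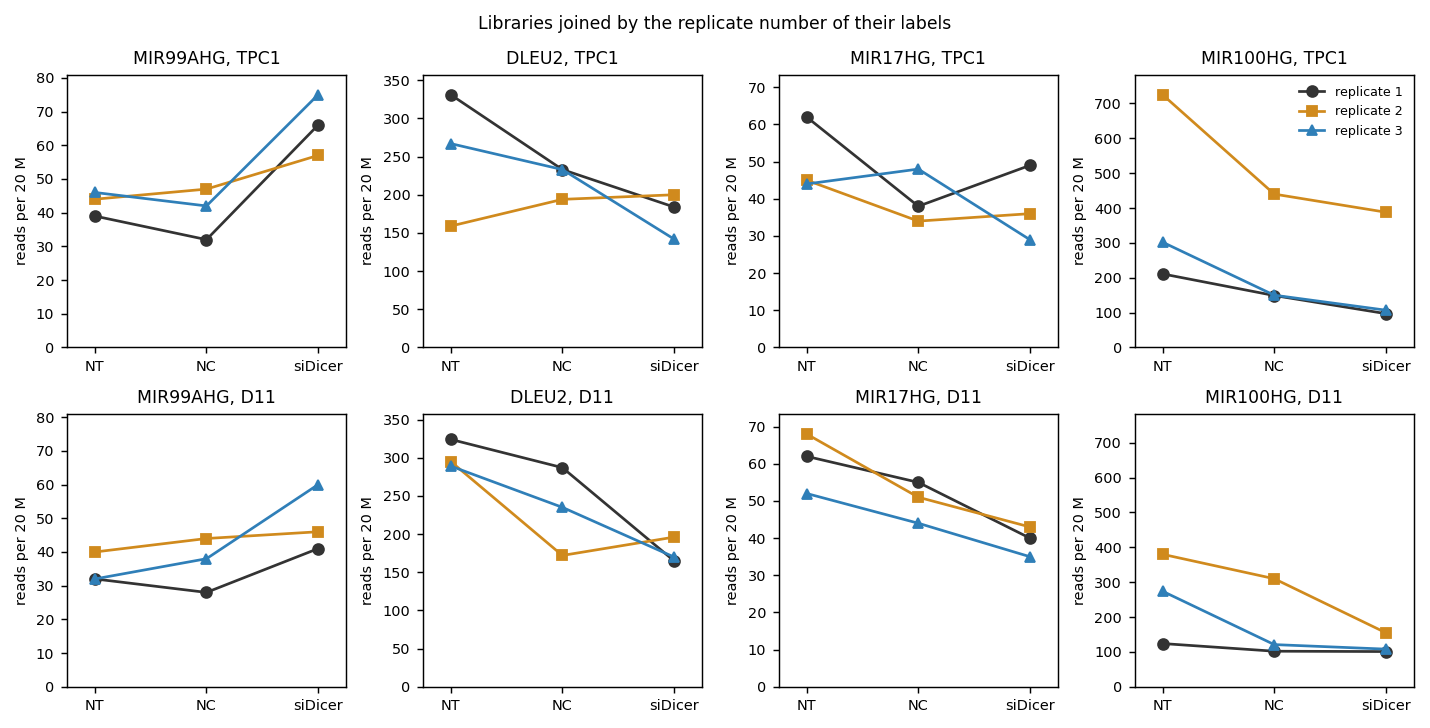
Values of MIR99AHG, DLEU2, MIR17HG and MIR100HG (vertical axis, reads per 20 M) in NT, NC and siDicer, TPC1 above and D11 below, with lines joining libraries of the same replicate number. Each of the 6 lines of MIR100HG ends lower than it begins, from 725 to 388 in the highest and from 124 to 101 in the flattest, and so do those of MIR17HG in TPC1 and D11 and the 3 of DLEU2 in D11.

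MIRLET7BHG, the chromosome 22 host of let-7a and let-7b, showed no resolved difference. TPC1 values were 79, 74 and 79 (NT), 79, 58 and 58 (NC) and 76, 82 and 54 (siDicer). D11 values were 135, 65 and 82 (NT), 53, 77 and 59 (NC) and 48, 80 and 74 (siDicer). Its siDicer mean was thus inside the control range in both lines, and the log2 difference had a 95% interval of -0.43 to 0.39 in TPC1 and of -0.77 to 0.41 in D11. The 3 let-7 hosts gave log2 differences of 0.65, -0.80 and -0.02 in TPC1 and of 0.45, -0.68 and -0.18 in D11, in the order MIR99AHG, MIR100HG and MIRLET7BHG.

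DLEU2 hosts miR-15a and miR-16 in the 13q14 region that is often deleted in chronic lymphocytic leukaemia. In D11 it was at 324, 295 and 289 with NT, 287, 172 and 235 with NC and 165, 196 and 170 with siDicer. NC replicate 2 lay inside the siDicer range and the other 5 control libraries lay above it. The log2 difference was -0.57 (SE 0.18, 95% interval -0.96 to -0.17). Its adjusted p was 0.0425, but a fold of 0.676 did not reach the fold change minimum, so it was not called. It was called without NC replicate 2 (-0.69, adjusted p = 0.00527) and against NT alone (-0.77, adjusted p = 0.00438), but against NC alone it was -0.36 (adjusted p = 0.234). With TMM or RLE scaling the adjusted p was 0.060, and without any one of the other 8 libraries it was 0.0509 to 0.143.

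In TPC1, DLEU2 was at 331, 159 and 267 with NT, 233, 194 and 233 with NC and 184, 200 and 142 with siDicer. The groups overlapped, and NT replicate 2 was below 2 of the 3 siDicer libraries. The log2 difference was -0.40 (SE 0.21, adjusted p = 0.221), and the difference between the lines was -0.16 (95% interval -0.77 to 0.45).

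Other rows at the DLEU2 locus were examined after the values were seen. DLEU1, a non-coding gene that starts at chr13:50082169 on the plus strand and overlaps DLEU2 on the opposite strand, had a control mean of 442 ± 56.0 (SD, n = 6) and a siDicer mean of 312 ± 52.0 (SD, n = 3) in D11. Its log2 difference was -0.51 in D11 (SE 0.14, adjusted p = 0.0219, under the fold change minimum) and -0.41 in TPC1 (adjusted p = 0.173). The table also lists short conserved regions named after DLEU2 but annotated on the plus strand. The 5 of them that were tested had log2 differences of -0.94 to -0.66 in TPC1 and of -0.65 to -0.56 in D11, and 0 were called (lowest adjusted p 0.0513 and 0.0568 in limma). Of the coding genes inside DLEU2 on the opposite strand, TRIM13 had -0.03 in TPC1 and -0.05 in D11, and KCNRG had -0.65 (adjusted p = 0.07) and -0.39 (adjusted p = 0.296). Since the counting may not have used strand, reads of DLEU2 and of these rows cannot be told apart.

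MIR17HG encodes the miR-17-92 polycistron, known as a target of MYC and E2F. In D11 it was at 62, 68 and 52 with NT, 55, 51 and 44 with NC and 40, 43 and 35 with siDicer. All siDicer libraries lay below all control libraries, as was so for 14.1% of tested genes. The log2 difference was -0.47 (SE 0.19, 95% interval -0.88 to -0.07) and did not pass the test (adjusted p = 0.0885).

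In TPC1, MIR17HG was at 62, 45 and 44 with NT, 38, 34 and 48 with NC and 49, 36 and 29 with siDicer. Here the groups overlapped and the log2 difference was -0.25 (SE 0.23, adjusted p = 0.501). In a list of 14 MYC and E2F genes, of which 13 were tested, 5 were called lower and 0 higher in D11, and 1 lower and 0 higher in TPC1. Over all genes, 6.75% were called lower in D11 and 4.16% in TPC1. Median log2 differences of that list were -0.51 in D11 and -0.40 in TPC1, and E2F2, a transcription factor of S phase entry, fell by 1.24 in D11 (adjusted p = 0.000649) and by 1.19 in TPC1 (adjusted p = 0.0128). RRM2, a ribonucleotide reductase subunit, fell by 0.94 in D11 (adjusted p = 0.000649), and MCM3, part of the replicative helicase, by 0.59 (adjusted p = 0.00173), a call lost under TMM and RLE scaling. The other 2 calls in D11, named after the values were seen, were MCM5, also of the helicase, at -0.70 (adjusted p = 0.00445) and ODC1, of polyamine synthesis, at -0.66 (adjusted p = 0.0136). The TPC1 call of E2F2 was lost without siDicer replicate 1 or 3. Whether these genes and MIR17HG share a cause was not tested.

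MIR503HG (chrX:134543119-134546642, minus strand) hosts miR-503 and overlaps the miR-424 hairpin at one end. It was listed at 0 in all libraries, as were the rows of MIR424 and MIR503. A count of 0 allows up to 3 reads, which is a value of 2.58 to 5.32 depending on the library, for counting error only. Its seed partner DLEU2 was at 142 or more in all libraries.

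MIR22HG is the host of miR-22 on chromosome 17 (chr17:1711447-1717174, minus strand). TPC1 values were 722, 719 and 609 (NT), 657, 775 and 710 (NC) and 658, 678 and 568 (siDicer). D11 values were 678, 840 and 592 (NT), 698, 798 and 671 (NC) and 694, 677 and 660 (siDicer). Its libraries were close together and the groups overlapped in both lines. The log2 differences of -0.14 in TPC1 (95% interval -0.36 to 0.08) and -0.06 in D11 (95% interval -0.32 to 0.19) had the narrowest intervals of the 9 members.

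MIR31HG, host of miR-31 on chromosome 9 (chr9:21380073-21559891, minus strand), was low. TPC1 values were 27, 33 and 30 (NT), 25, 35 and 41 (NC) and 25, 42 and 24 (siDicer), with a log2 difference of -0.10 (adjusted p = 0.83). D11 values were 20, 26 and 32 (NT), 37, 54 and 40 (NC) and 16, 28 and 22 (siDicer). In D11 the siDicer libraries lay below the NC libraries without overlap and overlapped the NT libraries. How many of all genes separate from NC in this way was not counted. The log2 difference to control was -0.61 (SE 0.30, adjusted p = 0.172), and against NC alone it was -0.97 (adjusted p = 0.0447). Against NC alone, 1585 of all genes were called in D11.

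MIR193BHG (chr16:14301389-14331067, plus strand), with miR-193b and miR-365a in its introns, was highest in NC. TPC1 values were 48, 38 and 51 (NT), 66, 77 and 107 (NC) and 45, 50 and 52 (siDicer). D11 values were 64, 38 and 51 (NT), 59, 68 and 95 (NC) and 55, 59 and 66 (siDicer). The NC libraries were above all NT and siDicer libraries in TPC1 but not in D11, and the share of all genes with such a gap was not counted. Against the joined control the log2 difference was -0.31 in TPC1 (adjusted p = 0.503) and -0.01 in D11 (adjusted p = 0.986), while against NT alone it was 0.11 in TPC1 and 0.26 in D11, neither called.

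MIR210HG hosts miR-210, the miRNA best known for induction by hypoxia. This gene (chr11:565657-568457, minus strand) shares no exon with another annotated gene. TPC1 values were 103, 116 and 292 (NT), 103, 453 and 210 (NC) and 45, 344 and 112 (siDicer). D11 values were 70, 176 and 255 (NT), 24, 364 and 210 (NC) and 26, 149 and 152 (siDicer). The spread within a group was larger than the difference between groups, and the log2 difference was -0.58 in TPC1 (SE 0.62, adjusted p = 0.572) and -0.67 in D11 (SE 0.76, adjusted p = 0.566). Without siDicer replicate 1 the sign turned in both lines, to 0.12 in TPC1 and 0.16 in D11.

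The values of MIR210HG differed with the replicate number and with a list of hypoxia-response genes. The 6 libraries numbered 1 held 24 to 103, and the 12 numbered 2 or 3 held 112 to 453. For 16 tested genes of the hypoxia list, the median deviation from the gene mean on the log2 scale was -0.70 to -0.19 in the libraries numbered 1 and -0.21 to 0.65 in the others. In each line NC replicate 2 had the highest MIR210HG (453 and 364) and also the highest list median (0.65 and 0.39). What the number marks is not stated, and the cause was not tested. Of the list itself, no gene (0 of 16) passed in TPC1 and 1 did in D11: ALDOC, a glycolytic aldolase that fell by 1.56 (adjusted p = 0.00862, a call lost without siDicer replicate 3), with a list median of -0.03 and 0.05. Over all genes, 7.38% passed in TPC1 and 12% in D11. ADM, an angiogenic peptide, and KDM3A, a histone demethylase, had log2 differences of 1.14 and 0.47 in D11 (adjusted p = 0.055 and 0.159).

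**Figure D4:**
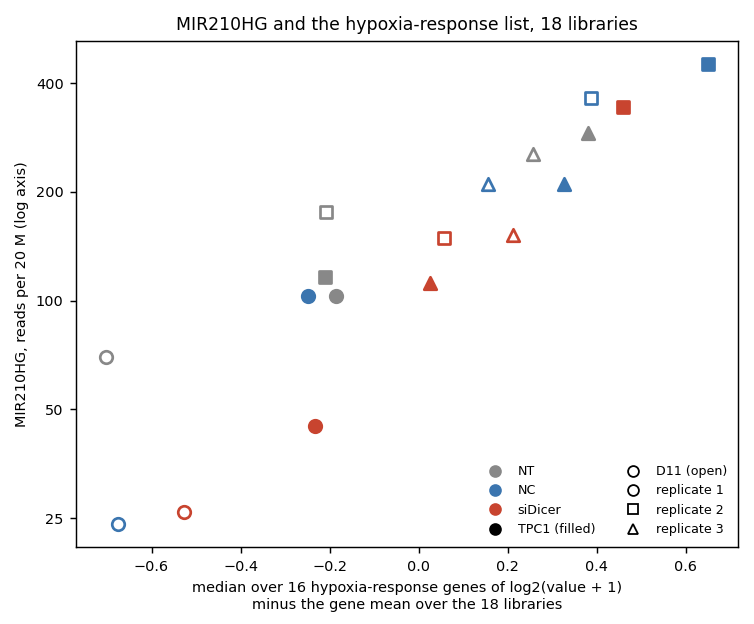
MIR210HG (vertical axis, reads per 20 M, log axis) against the median centred log2 level of 16 hypoxia-response genes (horizontal axis) in 18 libraries. Colours are NT, NC and siDicer, filled symbols TPC1 and open symbols D11, and symbol shapes replicate numbers. Libraries numbered 1 sit at the lower left, from 24 to 103, and NC replicate 2 of each line sits at the upper right.

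Because NT and NC were joined, the hosts were also compared between them. In limma, 0 of 9 members were called in TPC1, beside 0.111% of 18008 genes, and 0 of 9 in D11, beside 0.35% of 17992 genes. At an unadjusted p under 0.05, 1 of 9 members passed in each line, beside 11.1% and 13.6% of all genes, and voom on recovered reads called 0 of 9 in each. MIR193BHG had a log2 difference of NC to NT of 0.84 in TPC1 (SE 0.24, adjusted p = 0.253) and 0.53 in D11 (SE 0.27, adjusted p = 0.412). MIR31HG had 0.73 in D11 (SE 0.28, adjusted p = 0.308). MIR100HG had -0.74 in TPC1 (SE 0.53, adjusted p = 0.66) and -0.58 in D11 (SE 0.47, adjusted p = 0.61). DICER1 itself was higher in NC than in NT. Its log2 difference was 0.58 in TPC1 (SE 0.12, adjusted p = 0.133) and 0.71 in D11 (SE 0.18, adjusted p = 0.153), neither called. With the replicate number as a block, which the libraries of D11 allow, 315 genes were called in D11 and again 0 of 9 members. The TPC1 libraries narrowly missed the rule for pairing. There the block called 565 genes instead of 20, with MIR100HG and MIR193BHG among them.

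D11 was then compared with TPC1 before knockdown, over the control libraries of both lines and allowing for transfection. In limma, 0 of 9 members were called between D11 and TPC1, beside 1.02% of 18814 genes. At an unadjusted p under 0.05, 0 of 9 members and 9.85% of all genes passed, and voom called 0 of 9. DICER1 was called lower in D11, with a log2 difference of -0.68 (SE 0.12, adjusted p = 0.00561). Log2 differences of D11 to TPC1 were 0.30 for MIR17HG (95% interval -0.02 to 0.62), -0.53 for MIR100HG (-1.35 to 0.29) and -0.22 for MIR99AHG (-0.57 to 0.12). The range over the 9 members was -0.53 to 0.30. When the siDicer effect in D11 was tested against that in TPC1, 0 of 9 members and 0% of 19181 genes were called by limma. At an unadjusted p under 0.05, 0 of 9 members and 0.693% of all genes passed, and voom called 0 of 9. The largest estimate was -0.51 for MIR31HG (95% interval -1.33 to 0.31).

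The nearest tested coding gene on each side of each host, 20 genes in all, gave the local surroundings. In TPC1, 1 of 20 was called, PABIR2 (FAM122B in the deposited table), and in D11 2 of 20, PABIR2 and PARN, all lower. The matching shares of all genes were 7.38% (TPC1) and 12% (D11) for either direction, and 4.16% and 6.75% for lower alone. PABIR2 lies 223 kb from MIR503HG and fell by 0.93 in TPC1 (adjusted p = 0.0093) and by 1.01 in D11 (adjusted p = 0.00212). The TPC1 call was lost without siDicer replicate 1 or 3. PARN, a poly(A) ribonuclease 105 kb from MIR193BHG, fell by 0.68 in D11 (adjusted p = 0.00109). The neighbours of MIR99AHG were not called: USP25 had -0.20 in TPC1 and -0.11 in D11, and CXADR -0.16 and 0.19.

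Other non-coding hosts were few in these cells. Of 50 further rows named as MIR host genes, 15 were tested in TPC1, with 0 called, and 16 in D11, with 2 higher and 1 lower. The shares called over all genes were 7.38% in TPC1 and 12% in D11. MIR137HG was at 12 to 20 in D11 siDicer and at 2 to 12 in control, a log2 difference of 1.40 (SE 0.43, adjusted p = 0.0345). It met the minimum of 10 in 3 libraries only through its siDicer libraries, and it did not enter NC against NT of D11. Its call is therefore no independent sign of a rise. The NT libraries held 2 to 6, near the worth of 3 reads. MIR646HG was at 45 to 92 and at 17 to 55 (1.16, SE 0.36, adjusted p = 0.0372), with 0.99 in TPC1 (adjusted p = 0.0745). MIR4458HG fell by 0.68 in D11 (SE 0.16, adjusted p = 0.00957), from a control mean of 112 ± 13.8 (SD, n = 6) to 69.3 ± 9.07 (SD, n = 3). MIR137HG and MIR646HG had few reads, and leaving out any one siDicer library in D11 ended either call. That of MIR4458HG was lost without siDicer replicate 2.

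Among coding genes that carry a miRNA in an intron, 35 of 40 were tested. Calls in TPC1 were 2 higher and 0 lower, against 4 higher and 1 lower in D11. All genes tested gave 7.38% called in TPC1 and 12% in D11. LPP, a focal adhesion protein that hosts miR-28, rose by 0.95 in TPC1 (SE 0.19, adjusted p = 0.0105) and by 1.16 in D11 (SE 0.20, adjusted p = 0.00177). SLIT3, a guidance ligand that hosts miR-218, rose by 1.42 in TPC1 (adjusted p = 0.00763) and by 1.25 in D11 (adjusted p = 0.0036). These are differences to the joined control. NC was itself above NT for SLIT3, by 0.74 in TPC1 (adjusted p = 0.312) and 0.85 in D11 (adjusted p = 0.0907), neither called. Its means in D11 were 120 (NT), 215 (NC) and 381 (siDicer). WDR82, which hosts let-7g, rose by 0.62 in D11 (adjusted p = 0.000583), while ZRANB2, which hosts miR-186, had -0.58 (adjusted p = 0.00128), just under the fold change minimum. MCM7, a helicase subunit whose introns carry the miR-106b cluster related to MIR17HG, fell by 0.59 in D11 (adjusted p = 0.00624) and had -0.39 in TPC1 (adjusted p = 0.0836). CLCN5, a chloride transporter gene, rose by 0.79 in D11 (adjusted p = 0.0136), a call lost without siDicer replicate 1. For CLCN5 too, NC was above NT in D11, by 0.58 (adjusted p = 0.166, not called). Its NC libraries (604 to 844) overlapped its siDicer libraries (843 to 1201). SLIT3, MCM7 and CLCN5 were named after their values were seen. The call of MCM7 in D11 was lost under TMM and RLE scaling, and in TPC1 that of LPP was lost without siDicer replicate 1 or 3 and that of SLIT3 without siDicer replicate 1. The median over the list was 0.00 in TPC1 and 0.04 in D11. Of 9 genes from the Microprocessor to Argonaute, 0 were called in either line by limma. At an unadjusted p under 0.05, 3 passed in TPC1 and 1 in D11, beside 30.5% and 35.5% of all genes. In TPC1 these were TARBP2, a Dicer partner (0.32, adjusted p = 0.0535), DROSHA (-0.25, adjusted p = 0.102) and AGO4 (-0.60, adjusted p = 0.139), named after the values were seen. The smallest adjusted p in D11 were those of AGO1 (0.28, adjusted p = 0.0881), AGO3 (0.37, adjusted p = 0.178) and PRKRA, also a Dicer partner (-0.19, adjusted p = 0.179).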

How the data were processed

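TruSeq stranded mRNA libraries of 18 samples were analysed. Per the study's methods and the submitters' processing notes, the authors aligned reads to GRCh38 with STAR 2.5.3a and counted them per Ensembl gene with HTSeq 0.9.1. The values they deposited are a normalised score and no raw count: reads scaled to 20 M per library and rounded up, with library totals of 20010707 to 20018484. The step between values gave the worth of 1 read (0.861 to 1.77) and the depth (11.3 to 23.2 M reads). All sample columns were mapped to descriptions (0 left unmapped).

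The design foresaw count tests for raw counts. Because the deposited scores are scaled, log2(score + 1) was tested with limma 3.58.1 (trend) in R 4.3.3 over genes with at least 10 in at least 3 libraries of a comparison, with Benjamini-Hochberg adjustment over all of them. Calls needed a fold change of 1.5 or more with an adjusted p under 0.05, and 95% intervals come from the same fits. The siDicer libraries were tested against NT and NC jointly, NC against NT, D11 against TPC1 in control libraries, and the line by condition interaction over 18 libraries. The test was checked on simulated data.

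The members, the gene lists and the tests were chosen with earlier results of these data known. Named genes were the members, DICER1, their miRNA rows, their nearest coding neighbours, the 3 genes most like a called member, and per list (other MIR hosts, coding hosts, Microprocessor to Argonaute, hypoxia response, MYC and E2F) the 3 with the smallest adjusted p in D11. Genes named outside this rule are marked in the text. Positions come from GENCODE 44 (GRCh38) by gene identifier and mature miRNAs from RefSeq.

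Whether replicate numbers pair libraries was checked by correlating deviations from group means. In D11, 9 of 9 pairs with the same number exceeded 0.1 (0.11 to 0.50), and these were taken as paired. In TPC1, 8 of 9 did (0.099 to 0.54), and these were not. The main fits left the replicate number out in both lines, and it entered as a block only in the alternatives. Alternatives were pseudocounts of 0.1 and 10, TMM or RLE scaling, dropping the filter or the fold change minimum, requiring a mean of 100, voom on recovered reads, a fit of all 18 libraries, NT or NC alone, a replicate block and leaving out each library. NT or NC alone with the block were added after seeing the data.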

Additional observations from a re-analysis of the deposited data

Results flagged for a closer look

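MIRLET7BHG stood out in 1 library. Among the 6 control libraries of D11, NT replicate 1 held 135 reads per 20 M, against a group median of 71. Its gap to the next library made up 0.646 of the whole range of these unlogged values. On the log2 scale of the tests that share is smaller, so the flag depends on the scale. Of 18 sets of control libraries examined (9 members in each line) MIRLET7BHG in D11 was the only one with such a gap, and chance alone gives about 1 in 20. Without this library the log2 difference of MIRLET7BHG between siDicer and control in D11 was -0.01 instead of -0.18. MIR210HG and MIR100HG, whose libraries spread most, gave no such gap.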

How the results depend on the processing

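In TPC1, where 1 member (MIR99AHG) was called in siDicer against control, 0 were called with no filter on low values (its adjusted p was then 0.0808), with a mean of at least 100, which it does not reach and which left 4 members, with a pseudocount of 10, and with NT or NC alone as control. Leaving out each library gave 0 to 1. In D11, with 0 called, 1 was called with no fold change minimum, with voom, and with NT alone (DLEU2 in each). These settings called 4086, 2258 and 3055 of all genes. With NC alone 1 was called (MIR31HG, beside 1585 of all genes), while leaving out each library gave 0 to 1. In TPC1, 8 of 9 library pairs with the same replicate number correlated above 0.1, so the rule for pairing was narrowly missed. With the replicate block, 2 members were called there, MIR99AHG and MIR100HG (-0.80, adjusted p = 0.0412), beside 1796 of all genes, and 2 in NC against NT of TPC1, MIR100HG and MIR193BHG. With the block and one control group, 3 were called in TPC1 against NC alone (MIR210HG, MIR193BHG and MIR99AHG, beside 1974 of all genes) and 1 against NT alone (MIR100HG, -1.17, beside 1801). In D11, 1 was called against NC alone (MIR31HG, beside 2161) and 4 against NT alone (MIR17HG, MIR100HG, MIR210HG and DLEU2, all lower, beside 3372). The block changed no member's call in siDicer against the joined control of D11, NC against NT of D11, D11 against TPC1 or the interaction. It moved the genes called between NC and NT to 565 in TPC1, from 20, and between D11 and TPC1 to 385, from 191. Genes called in siDicer against control were 2552 in TPC1 and 4086 in D11 with no fold change minimum (1363 and 2212 with it). Leaving out siDicer replicate 1, 2 or 3 gave 446, 2094 and 427 in TPC1, and leaving out replicate 3 gave 1374 in D11. With no filter, NC against NT gave 13 genes in TPC1 and 8 in D11, and with a mean of at least 100, D11 against TPC1 gave 45.

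Signs turned for some differences that were not called. MIRLET7BHG in TPC1 was 0.0094 with TMM and 0.019 with RLE scaling, and 0.11 against NC alone with or without the block, and in D11 0.079 against NC alone with or without it. MIR193BHG was 0.11 against NT alone in TPC1 and 0.26 in D11, with or without the block, and 0.030 with TMM and 0.030 with RLE scaling in D11. Leaving out each library gave -0.35 to 0.045 for MIR31HG, -1.33 to 0.12 for MIR210HG and -0.14 to 0.16 for MIRLET7BHG in TPC1, and -1.16 to 0.16 for MIR210HG, -0.14 to 0.12 for MIR193BHG and -0.32 to 0.042 for MIRLET7BHG in D11. The causes were not tested.

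With 3 siDicer libraries per line, precision is set by the spread: the 95% interval ran from -0.36 to 0.08 for MIR22HG in TPC1 and from -2.31 to 0.98 for MIR210HG in D11.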

Other observations

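Further host transcripts of well-known miRNAs were read out after the values were seen. MIR155HG, host of a miRNA of immune activation, had a control mean of 60.8 ± 8.42 (SD, n = 6) and a siDicer mean of 62.3 ± 20.5 (SD, n = 3) in TPC1, and 66.5 ± 8.69 and 53 ± 5.29 in D11 (log2 difference -0.32, adjusted p = 0.202). MIR222HG, host of a miRNA pair often raised in papillary thyroid carcinoma, had log2 differences of -0.18 in TPC1 and -0.14 in D11. MIR34AHG, host of a p53-induced miRNA, had 0.30 and 0.26 (adjusted p = 0.316 and 0.356). None of these passed the test in either line.

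The gene profiles nearest to some members without a call were also listed after seeing the data, by root mean square difference of centred log2 values over 18 libraries. Nearest to MIR210HG were PPFIA4 (0.37), RASSF4 (0.54) and the glycolysis regulator PFKFB4 (0.56), beside a spread of 1.18 for MIR210HG itself. Nearest to MIR100HG were ITPKA (0.31), UBALD2 (0.32) and STARD4 (0.34), beside a spread of 0.86. Nearest to DLEU2 were FANCE (0.14), LRR1 (0.14) and RCC1 (0.14), beside a spread of 0.37.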
